A study of Mus musculus with 32 samples.

Results

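The mitogen-activated protein kinase (MAP kinase) cascade and the dual specificity phosphatase (Dusp) family were described in RNA of mouse cardiac ventricle. Members were all genes whose only annotated symbol on the arrays starts with Map4k, Map3k, Map2k, Mapk or Dusp. This gave 62 genes of 13660 with a single symbol, measured by 120 probe sets, and each gene is given by the probe set with its highest mean log2 signal, its representative. The representatives of 37 genes lie on the first of 2 Affymetrix array types and those of 25 genes on the second.

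Each array type held 5 arrays of wild type control mice (normal cardiac phenotype). It also held 8 arrays of AT1 transgenic mice (a cardiac specific transgene) in the stage of cardiac hypertrophy and 3 of AT1 transgenic mice in cardiac failure, which makes 32 arrays in all. Hypertrophy and failure samples thus both carry the transgene, and no sample has an enlarged or failing heart without it. AT1 is not written out in the labels and is the common short name of the type 1 angiotensin II receptor. The promoter that drives the transgene, the strain, age and sex, and whether replicates are separate animals were not given in the sources used here, so p-values measure only the spread between these samples, which may be technical.

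In the cascade a MAP3 kinase phosphorylates a MAP2 kinase, which phosphorylates a MAP kinase on a threonine and a tyrosine of its activation loop. The MAP4 kinases act upstream of the MAP3 kinases. The branches end in ERK, JNK, p38 and ERK5, all of which are studied in cardiac hypertrophy downstream of G protein coupled receptors such as the angiotensin receptor. The MAP kinase phosphatases of the Dusp family remove both phosphates, and several of them are themselves transcribed in response to MAP kinase activity, which closes a negative feedback loop. Kinase activity is set by phosphorylation, which arrays of RNA do not measure.

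The feedback phosphatases are known for transcription that starts quickly after a stimulus, so the 250 bases upstream of the start sites of Dusp1, Dusp5 and Dusp6 are shown. They come from RefSeq on GRCm38.p6 and are written 5′ to 3′ on the gene's strand. Capitals mark matches to the cAMP response element (CRE, TGACGTCA) in Dusp1 and to the CArG box bound by serum response factor in Dusp5.
Dusp1: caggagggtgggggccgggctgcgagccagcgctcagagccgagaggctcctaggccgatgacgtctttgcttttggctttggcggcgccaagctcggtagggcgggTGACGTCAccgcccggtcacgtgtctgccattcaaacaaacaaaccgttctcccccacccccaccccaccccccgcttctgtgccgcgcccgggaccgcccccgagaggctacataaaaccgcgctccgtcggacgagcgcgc
Dusp5: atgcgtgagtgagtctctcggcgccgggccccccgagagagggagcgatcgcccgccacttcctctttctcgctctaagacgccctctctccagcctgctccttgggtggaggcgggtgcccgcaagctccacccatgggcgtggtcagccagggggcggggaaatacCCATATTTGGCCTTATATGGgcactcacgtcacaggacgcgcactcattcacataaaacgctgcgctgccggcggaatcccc
Dusp6: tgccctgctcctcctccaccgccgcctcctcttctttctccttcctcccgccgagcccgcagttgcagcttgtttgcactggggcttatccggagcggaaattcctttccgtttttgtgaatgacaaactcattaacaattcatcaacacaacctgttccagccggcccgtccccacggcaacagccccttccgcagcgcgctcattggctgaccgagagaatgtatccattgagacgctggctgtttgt
The windows lie at chr17:26508473-26508722 (minus strand), chr19:53528895-53529144 (plus strand) and chr10:99262981-99263230 (plus strand). The CRE of Dusp1 begins 143 bases before the start site, and the CArG boxes of Dusp5 begin 82 and 72 bases before it. The Dusp6 window held none of the motifs searched. A promoter was matched for 52 of the 62 members. On either strand, the CRE was found in 3 of these 52 (Dusp1, Dusp8 and Mapk10; 5.77%), against 2.65% of 10925 genes on the arrays. The CArG box was found in 1 (Dusp5; 1.92% against 1.55%). The AP-1 site TGANTCA was found in 3 (5.77% against 6.40%), the EGR site GCGGGGGCG in 4 (7.69% against 5.32%) and the ETS core CCGGAAGT in 4 (7.69% against 5.57%). No member's window held both a CRE and an AP-1 site, and the 2 CArG boxes of Dusp5 adjoin without overlap. The median GC content of these windows was 63.4% for members and 58.8% for array genes. A match is a description of the letters, not of a bound site.

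The 10 cardiomyocyte markers were all tested, and their summed intensity was 57017 to 63558 in wild type, 52209 to 64750 in hypertrophy and 58469 to 59936 in failure. Of 10 fibroblast markers, 9 had a positive log2 difference in failure against wild type, 5 of them at an unadjusted p under 0.05 and 0 after adjustment. The fibroblast sum was 3905 to 4763 in wild type, 2642 to 6125 in hypertrophy, and 7585, 8186 and 4231 in failure replicates 1, 2 and 3, and none of the 10 was at the floor on all arrays. The sum of the 2 erythroid markers was 3892, 5142 and 10383 in failure replicates 1, 2 and 3, against 4457 to 6471 in wild type. All 6 markers of hypertrophy and stress had a positive difference at an unadjusted p under 0.05 in failure against wild type, and 1 passed after adjustment. Of the 3 tested atrial markers, 2 (Myl7 and Nppa) had a positive difference there and Myl4 had a negative one. Their median of 1.26 is the value of Nppa, which is on both lists. In RNA of whole ventricle, fewer cells of a type and less RNA per cell cannot be told apart. The ratio of the 5′ to the 3′ Actb control probe sets, a measure of RNA integrity, was 0.623 ± 0.0819 (SD, n = 5) in wild type, 0.701 ± 0.204 (n = 8) in hypertrophy and 0.960 ± 0.173 (n = 3) in failure on the first array type. The same ratio for Gapdh was 0.468 and 0.0487 in hypertrophy replicates 6 and 7, against 0.889 ± 0.0543 (n = 5) in wild type. The part of these measures in the members' values was not tested.

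Of the 62 members, 50 reached their own array's median intensity on at least 3 arrays and were tested with limma, and 12 were dimmer and were not. None of the 50 passed an adjusted p of 0.05 when hypertrophy or failure was set against wild type, or failure against hypertrophy. The p-values were adjusted by the Benjamini-Hochberg method over every tested probe set of an array type. Over all 13984 tested probe sets the same rule called 0.0858%, 0.25% and 0.0143% in these 3 comparisons. The smallest adjusted p among the 50 representative probe sets was 0.48, 0.109 and 0.445 in the same order. At an unadjusted p under 0.05 there were 3 members in hypertrophy against wild type (6% of members, background 7.12%), 6 in failure against wild type (12%, background 11.4%) and 4 in failure against hypertrophy (8%, background 9.36%). These shares lie near those of all probe sets. With weights estimated per array, 4 members passed in failure against wild type (Dusp4, Dusp6, Map2k4 and Mapk14), where 10.2% of all probe sets did. With only wild type and failure arrays in the fit, 1 passed (Map3k10), where 2.25% of all did. No member passed without hypertrophy replicates 6 and 7.

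The differences were small on the log2 scale. In hypertrophy against wild type the members ranged from -0.26 (Dusp9) to 0.55 (Map3k8), with a median of -0.03 beside 0.01 for all probe sets tested. In failure against wild type they ranged from -0.66 to 1.11 (Map3k10), with a median of 0.02 beside 0.05. In failure against hypertrophy they ranged from -0.72 (Map3k8) to 0.69 (Map3k10), with a median of 0.03 beside 0.04. The median size of a difference, sign aside, was 0.115, 0.163 and 0.128 for members and 0.102, 0.148 and 0.130 for all probe sets. The 95% interval of the difference lay within ±1 for 48, 46 and 47 of the 50 members. It lay within ±0.5 for 40, 26 and 30. Intervals in failure were wider, with 3 arrays in that group. Any 2 of the comparisons share a group of arrays.

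**Figure D1:**
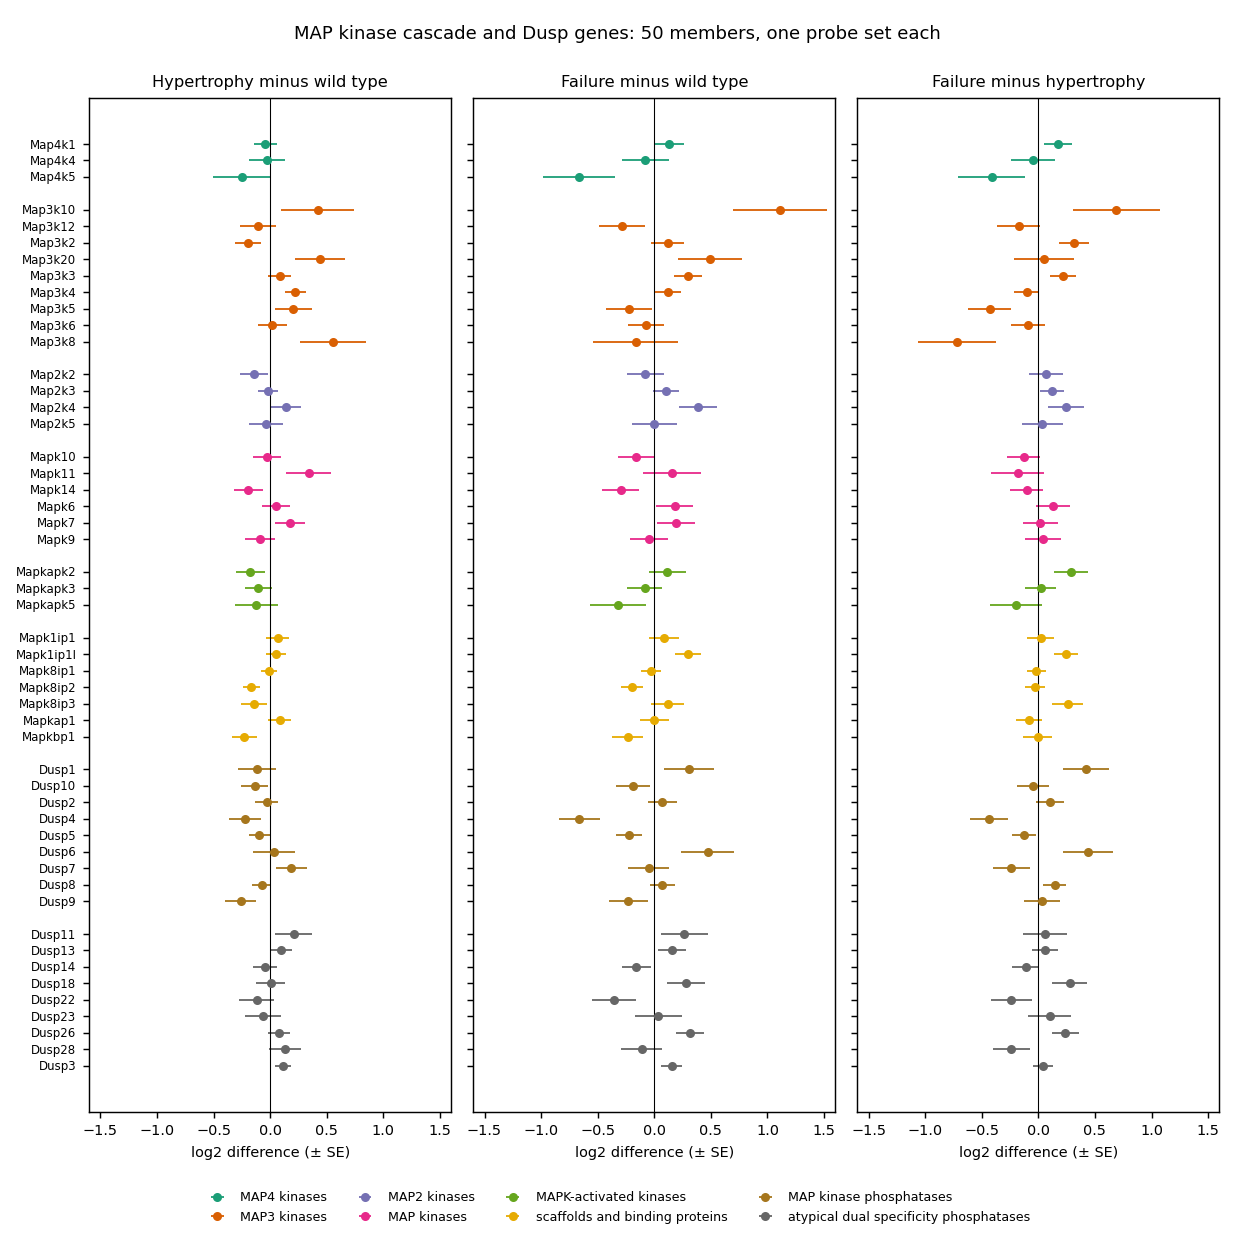
Log2 difference (x axis, points with bars of ± 1 SE) of each of the 50 tested members (rows, coloured by role) in the 3 comparisons, hypertrophy minus wild type, failure minus wild type and failure minus hypertrophy. Most points lie within 0.5 of 0, with Map3k10 at 1.11 and Dusp4 and Map4k5 at -0.66 as the farthest in failure against wild type.

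In 6 members every failure array lay above every wild type array and in 1 every failure array lay below, 14% of members beside 13.5% of all probe sets tested (9.17% above and 4.34% below). The 6 were Map3k10, Map3k20, Map3k3, Map2k4, Dusp6 and Dusp26, and the 1 was Dusp4. No member had groups without overlap in hypertrophy against wild type (background 0.436%) or in failure against hypertrophy (background 2.16%). Counts by direction depended on the scaling. As deposited, 26 of 50 members had a positive difference in failure against wild type and 28 of 50 in failure against hypertrophy, beside 59.7% and 58.5% of all probe sets. With arrays scaled to one median the counts were 21 and 20.

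At the top of the cascade, 3 of 3 MAP4 kinases and 9 of 12 MAP3 kinases were tested, and none passed. Map4k5, a kinase of the germinal centre family, had intensities of 308, 174, 252, 145 and 247 in wild type, 116 to 271 with a median of 191 in hypertrophy, and 196, 185 and 70.7 in failure. Failure replicates 1 and 2 lay within the wild type range and only replicate 3 below it. The difference in failure against wild type was -0.66 ± 0.32 on the log2 scale (SE; limma adjusted p = 0.416), and -0.19 without failure replicate 3. Map4k1, known from lymphocyte signalling, and Map4k4 differed from wild type by -0.04 and -0.03 in hypertrophy and by 0.13 and -0.08 in failure.

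Map3k10 (MLK2), a mixed lineage kinase upstream of JNK, had the largest difference among the representative probe sets in failure against wild type. Its wild type intensities were 92.0, 82.7, 86.5, 82.2 and 148, those in hypertrophy 64.5 to 321 with a median of 112, and those in failure 204, 149 and 289. Failure replicate 2 lay just above wild type replicate 5, so the groups met without overlap, and the hypertrophy arrays covered the whole range of both. The difference was 1.11 ± 0.42 in failure against wild type, a 2.16-fold ratio (limma adjusted p = 0.274, 95% interval 0.23 to 1.99), and 0.42 ± 0.33 in hypertrophy. Fitted on the wild type and failure arrays alone its SE was 0.24 and its adjusted p 0.0427.

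Map3k20 (ZAK), a stress-responsive kinase upstream of JNK and p38, had intensities of 719, 508, 530, 644 and 614 in wild type and 794, 898 and 833 in failure. In hypertrophy it lay between 369 and 1349 with a median of 820. Failure arrays were all above wild type arrays, and the highest hypertrophy arrays were replicates 6 and 7, those of low Gapdh ratio. The difference was 0.44 ± 0.22 in hypertrophy (limma adjusted p = 0.535; 0.23 without those replicates) and 0.49 ± 0.28 in failure (adjusted p = 0.497). Map3k8 (Tpl2), which activates the ERK branch, had a difference of 0.55 ± 0.29 in hypertrophy against wild type (adjusted p = 0.96) and of -0.72 ± 0.35 in failure against hypertrophy (adjusted p = 0.5). Its highest array was again hypertrophy replicate 6, at 2044, and without replicates 6 and 7 the differences were 0.31 and -0.48.

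Map3k3 (MEKK3), an activator of the ERK5 branch, had intensities of 194, 150, 190, 177 and 202 in wild type, 153 to 213 with a median of 198 in hypertrophy, and 230, 204 and 238 in failure. All failure arrays were above wild type, replicate 2 by a small margin. The difference was 0.30 ± 0.13 (limma adjusted p = 0.41), and a further probe set of the gene gave -0.06 ± 0.12. Map3k2 (MEKK2), its close relative, differed from wild type by -0.20 ± 0.11 in hypertrophy and by 0.12 ± 0.15 in failure, and failure lay 0.32 ± 0.14 above hypertrophy (adjusted p = 0.445). Its second probe set, on the other array type, gave -0.21, 0.05 and 0.26.

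Map3k4 (MEKK4), which acts on JNK and p38, had the smallest p among the representative probe sets in hypertrophy against wild type. It lay at 847, 836, 899, 702 and 838 in wild type, at 847 to 1117 with a median of 951 in hypertrophy, and at 976, 901 and 805 in failure. Hypertrophy arrays overlapped wild type only at their lower end. The difference was 0.22 ± 0.09 (limma unadjusted p = 0.0305, adjusted p = 0.96), and a second probe set gave 0.22 ± 0.18. Map3k5 (ASK1), a kinase activated by oxidative stress, lay at 109 to 122 in wild type, at 99.0 to 178 in hypertrophy, and at 125, 122 and 62.5 in failure. Only failure replicate 3 was below the other groups. The difference in failure against hypertrophy was -0.43 ± 0.19 (adjusted p = 0.458) and -0.10 without that replicate. In failure against wild type it was -0.22 ± 0.21, and 0.10 without that replicate. Map3k6 and Map3k12 differed from wild type by 0.02 and -0.11 in hypertrophy and by -0.07 and -0.29 in failure. As a group, 7 of 9 MAP3 kinases had a positive difference in hypertrophy and 5 of 9 in failure, with medians of 0.21 and 0.12, beside 52.0% and 59.7% of all probe sets with a positive difference.

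Of the MAP2 kinases, which phosphorylate the MAP kinases themselves, 4 of 6 were tested. Map2k4 (MKK4), which activates JNK and p38, lay at 100, 104, 88.9, 110 and 110 in wild type, at 84.6 to 168 with a median of 108 in hypertrophy, and at 134, 133 and 133 in failure. The failure arrays were close to one another and above all wild type arrays, while hypertrophy spanned both groups. The difference was 0.38 ± 0.17 in failure (limma adjusted p = 0.42, 95% interval 0.03 to 0.74), and with array weights it was 0.39 with an adjusted p of 0.0221. Map2k3 (MKK3), specific for p38, had a difference of -0.02 ± 0.09 in hypertrophy and 0.10 ± 0.11 in failure. Its 95% intervals were -0.21 to 0.17 and -0.14 to 0.34. Map2k2 (MEK2), which activates ERK, had differences of -0.14 ± 0.13 and -0.08 ± 0.16, and Map2k5, the activator of ERK5, of -0.04 ± 0.15 and 0.00 ± 0.20.

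Of the 9 MAP kinases 6 were tested, and none passed in any comparison. Mapk14 (p38 alpha), the main p38 of the heart, had intensities of 322, 235, 318, 332 and 268 in wild type, 185 to 313 with a median of 261 in hypertrophy, and 232, 223 and 261 in failure. Failure replicates 1 and 2 lay just below the lowest wild type array and replicate 3 lay within the wild type range, so the groups overlapped. The difference was -0.19 ± 0.13 in hypertrophy (limma adjusted p = 0.96) and -0.30 ± 0.16 in failure (adjusted p = 0.551, 95% interval -0.64 to 0.04). With array weights the value in failure was -0.41 with an adjusted p of 0.0185. Mapk11 (p38 beta) lay at 507, 460, 542, 183 and 517 in wild type, at 463 to 571 in hypertrophy, and at 453, 447 and 480 in failure. Wild type replicate 4 stood apart from its group. The difference in hypertrophy was 0.34 ± 0.20 (adjusted p = 0.613) and 0.05 without that array, and in failure it was 0.16 ± 0.25 and -0.14. A second probe set of Mapk11 gave 0.11 ± 0.12 in hypertrophy and 0.35 ± 0.16 in failure (limma unadjusted p = 0.0408).

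Mapk9 (JNK2) lay at 1326, 1436, 1344, 1454 and 1284 in wild type, at 1079 to 1816 with a median of 1161 in hypertrophy, and at 1587, 1315 and 1112 in failure. The groups overlapped throughout. The differences were -0.09 ± 0.13 and -0.05 ± 0.17, with 95% intervals of -0.36 to 0.19 and -0.40 to 0.31. Mapk10 (JNK3), best known from neurons, differed by -0.03 ± 0.12 and -0.16 ± 0.16. Mapk7 (ERK5), the MAP kinase of the Map2k5 branch, differed by 0.17 ± 0.13 and 0.19 ± 0.17, and Mapk6 (ERK3), an atypical MAP kinase, by 0.05 ± 0.13 and 0.18 ± 0.16. Probe sets of a single symbol for ERK1 and ERK2 were not analysed here.

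The 3 MAPK-activated kinases, substrates of p38 and ERK, were all tested. Mapkapk2 (MK2), the p38 substrate that controls the stability of inflammatory mRNA, differed by -0.18 ± 0.13 in hypertrophy and 0.12 ± 0.16 in failure. Its failure arrays were at 657, 651 and 1086, against 654 to 757 in wild type, so 1 array of 3 lay above the wild type range. Mapkapk3 differed by -0.11 and -0.09, and Mapkapk5 by -0.12 and -0.32 ± 0.24. All 3 had a negative difference in hypertrophy, none at an unadjusted p under 0.05. A second probe set of Mapkapk3 gave -0.16 ± 0.15 in hypertrophy and -0.40 ± 0.19 in failure (limma unadjusted p = 0.0525).

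All 7 scaffolds and binding proteins were tested. Mapk8ip2 (JIP2), a JNK scaffold, lay at 332, 370, 345, 360 and 296 in wild type, at 281 to 330 with a median of 301 in hypertrophy, and at 293, 283 and 313 in failure. Wild type replicate 5 lay among the transgenic arrays, and the other wild type arrays lay above them all. The differences were -0.17 ± 0.07 (limma adjusted p = 0.48) and -0.20 ± 0.10 (adjusted p = 0.422), and a second probe set gave 0.01 ± 0.08 and -0.05 ± 0.10. Mapkbp1, a JNK binding protein, lay at 133 to 169 in wild type, at 98.7 to 150 in hypertrophy and at 118 to 140 in failure. Its differences were -0.23 ± 0.11 (adjusted p = 0.96) and -0.24 ± 0.14 (adjusted p = 0.593).

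Mapk1ip1l lay at 140, 131, 141, 132 and 160 in wild type, at 130 to 169 with a median of 144 in hypertrophy, and at 176, 156 and 188 in failure. Failure replicate 2 fell within the wild type range and the other two lay above it. The difference in failure was 0.30 ± 0.11 against wild type (limma adjusted p = 0.286) and 0.25 ± 0.11 against hypertrophy (adjusted p = 0.525). Mapk8ip1 (JIP1), the first-described JNK scaffold, had the narrowest interval of the 7 in hypertrophy, with a difference of -0.01 ± 0.07 (95% interval -0.16 to 0.13), and of -0.03 ± 0.09 in failure. Mapk8ip3, Mapkap1 (SIN1, a subunit of mTOR complex 2) and Mapk1ip1 differed from wild type by -0.14, 0.08 and 0.06 in hypertrophy and by 0.12, 0.00 and 0.08 in failure.

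Of the 10 MAP kinase phosphatases 9 were tested. In hypertrophy 2 of the 9 had a positive difference (52.0% of all probe sets) and 7 a negative one, with a median of -0.10, and none had an unadjusted p under 0.05. In failure 4 were positive (59.7% of all probe sets) and 5 negative, with a median of -0.05. Dusp4 (MKP-2), a nuclear phosphatase of ERK and JNK, had the smallest p among the representative probe sets in failure against wild type. It lay at 277, 420, 313, 336 and 279 in wild type, at 223 to 352 with a median of 261 in hypertrophy, and at 268, 199 and 157 in failure. All failure arrays were below all wild type arrays, replicate 1 by a small margin, and 1 of them lay within the hypertrophy range. The difference was -0.66 ± 0.18 in failure against wild type, a ratio of 0.632 (limma unadjusted p = 0.00186, adjusted p = 0.109, 95% interval -1.04 to -0.28). It was -0.22 ± 0.14 in hypertrophy against wild type (adjusted p = 0.643) and -0.44 ± 0.17 in failure against hypertrophy (adjusted p = 0.476). Without failure replicate 3 the difference from wild type was -0.48 with an adjusted p of 0.367, and with array weights it was -0.59 with an adjusted p of 0.0276.

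Dusp1 (MKP-1), the immediate-early phosphatase of p38 and JNK whose promoter holds the CRE printed above, lay at 437, 325, 495, 394 and 298 in wild type, at 238 to 483 with a median of 382 in hypertrophy, and at 553, 516 and 372 in failure. Failure replicates 1 and 2 were above every other array and replicate 3 was within both other groups. The differences were -0.12 ± 0.17 in hypertrophy, 0.31 ± 0.22 in failure against wild type (limma adjusted p = 0.673) and 0.42 ± 0.20 in failure against hypertrophy (adjusted p = 0.498). Failure replicates 1 and 2 were also those with the higher sums of fibroblast, macrophage and leukocyte, lymphocyte, and hypertrophy and stress markers. The part of this in the Dusp1 values was not tested. Dusp6 (MKP-3), the cytoplasmic phosphatase of ERK, lay at 110, 108, 129, 110 and 77.0 in wild type, at 67.9 to 154 with a median of 113 in hypertrophy, and at 140, 166 and 134 in failure. All failure arrays were above wild type and within or just above the hypertrophy range. The difference in failure was 0.47 ± 0.24 (adjusted p = 0.495), and with array weights it was 0.54 with an adjusted p of 0.0343.

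The probe set of Dusp6 on the second array type did not give this order. It lay at 111, 103, 82.6, 105 and 108 in wild type, at 62.5 to 104 with a median of 76.2 in hypertrophy, and at 115, 93.0 and 78.7 in failure. Its difference was -0.37 ± 0.12 in hypertrophy (limma adjusted p = 0.349) and -0.10 ± 0.16 in failure, against 0.03 ± 0.18 in hypertrophy for the first probe set. Failure lay above hypertrophy on both, by 0.44 ± 0.22 and 0.27 ± 0.15.

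Dusp5, a nuclear phosphatase of ERK whose promoter holds the CArG boxes printed above, lay at 153, 162, 173, 165 and 197 in wild type, at 146 to 168 with a median of 160 in hypertrophy, and at 169, 155 and 117 in failure. Only failure replicate 3 was below the wild type range. The differences were -0.10 ± 0.09 and -0.22 ± 0.12 (limma adjusted p = 0.774 and 0.455). Dusp9 (MKP-4), an ERK phosphatase, lay at 316 to 419 in wild type, at 198 to 390 in hypertrophy and at 270 to 323 in failure, with differences of -0.26 ± 0.14 and -0.23 ± 0.17. A second probe set of Dusp9 gave -0.27 ± 0.16 and 0.03 ± 0.20. Dusp10 (MKP-5), which acts on JNK and p38, differed by -0.14 ± 0.12 and -0.19 ± 0.15. Dusp2, Dusp7 and Dusp8 differed from wild type by -0.03, 0.19 and -0.08 in hypertrophy and by 0.07, -0.05 and 0.07 in failure.

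**Figure D2:**
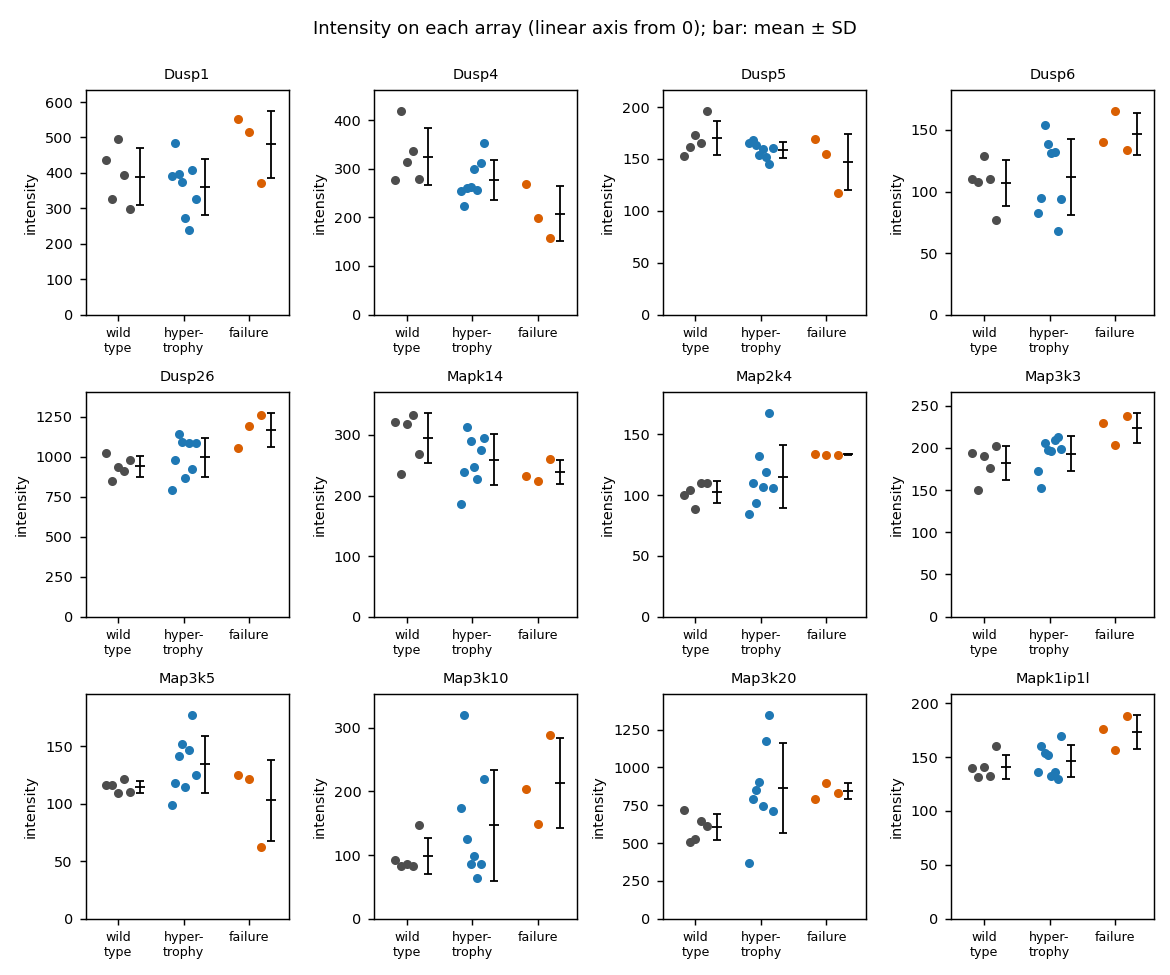
Deposited intensity (y axis, linear from 0) on each array for 12 members in wild type (grey, 5 arrays), hypertrophy (blue, 8) and failure (orange, 3), with the mean and SD beside each group. The 3 failure arrays of Dusp4 lie between 157 and 268, below the wild type arrays at 277 to 420, and those of Map2k4 lie at 133 to 134, above the wild type arrays.

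Of the 12 atypical dual specificity phosphatases, small enzymes without the MAP kinase binding domain of the previous group, 9 were tested. Dusp26, a phosphatase known from neural and muscle tissue, lay at 1023, 848, 935, 913 and 978 in wild type, at 794 to 1141 with a median of 1030 in hypertrophy, and at 1053, 1195 and 1261 in failure. All failure arrays were above wild type, replicate 1 by little, and overlapped hypertrophy. The difference was 0.32 ± 0.13 in failure (limma adjusted p = 0.303, 95% interval 0.05 to 0.58) and 0.08 ± 0.10 in hypertrophy. Dusp3 (VHR), which acts on ERK and JNK, differed by 0.11 ± 0.07 and 0.15 ± 0.09, and its 2 further probe sets gave 0.30 and 0.16 in hypertrophy and 0.03 and 0.20 in failure. Dusp22 (JKAP), an activator of the JNK branch, differed by -0.12 ± 0.15 and -0.36 ± 0.19. Dusp11, Dusp13, Dusp14, Dusp23 and Dusp28 differed from wild type by 0.21, 0.10, -0.05, -0.06 and 0.13 in hypertrophy, and by 0.27, 0.16, -0.16, 0.04 and -0.11 in failure.

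Dusp18, a phosphatase found in mitochondria, depended on the probe set. The representative lay at 200, 141, 178, 172 and 209 in wild type, at 138 to 220 in hypertrophy, and at 211, 243 and 198 in failure, with a difference of 0.28 ± 0.17 in failure (limma adjusted p = 0.512). The other probe set, also on the second array type, lay at 169, 115, 100, 189 and 106 in wild type, at 95.6 to 315 with a median of 132 in hypertrophy, and at 286, 356 and 291 in failure. Its failure arrays were all above wild type. Its difference was 1.23 ± 0.31 in failure against wild type (adjusted p = 0.0926) and 1.17 ± 0.29 in failure against hypertrophy (adjusted p = 0.2). Neither passed, and this is the largest gap between probe sets of a member in failure against wild type, at 0.95.

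The 12 members not tested were Map3k1, Map3k7 and Map3k11 of the MAP3 kinases, Map2k1 and Map2k6, Mapk8 (JNK1), Mapk12 and Mapk13 of the MAP kinases, and Dusp12, Dusp15, Dusp16 and Dusp19. They stayed under the array median on all 16 arrays of their type, except Dusp16 and Map2k1, which reached it on 1, so their values are given without a test. Mapk13 (p38 delta) lay between 1 and 20.5 on all arrays. Map2k1 (MEK1) lay at 67.4 to 83.4 in wild type and 70.8 to 82.9 in failure. Dusp16 (MKP-7), a JNK phosphatase, lay at 41.3 to 91.8 in wild type, 78 to 103 in hypertrophy, and 84.4, 122 and 107 in failure.

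Further tested probe sets gave 18 second measurements for 15 genes. The sign was the same as that of the representative in 11 of 18 pairs for hypertrophy and 13 of 18 for failure, each against wild type, and in 11 of 18 for failure against hypertrophy. The median gap between both values was 0.109, 0.137 and 0.179 on the log2 scale, about as large as the median size of a member's difference. Where signs differed and either value had an unadjusted p under 0.05, the genes were Dusp6 and Mapk8ip2 in hypertrophy and Map3k3 in failure.

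**Figure D3:**
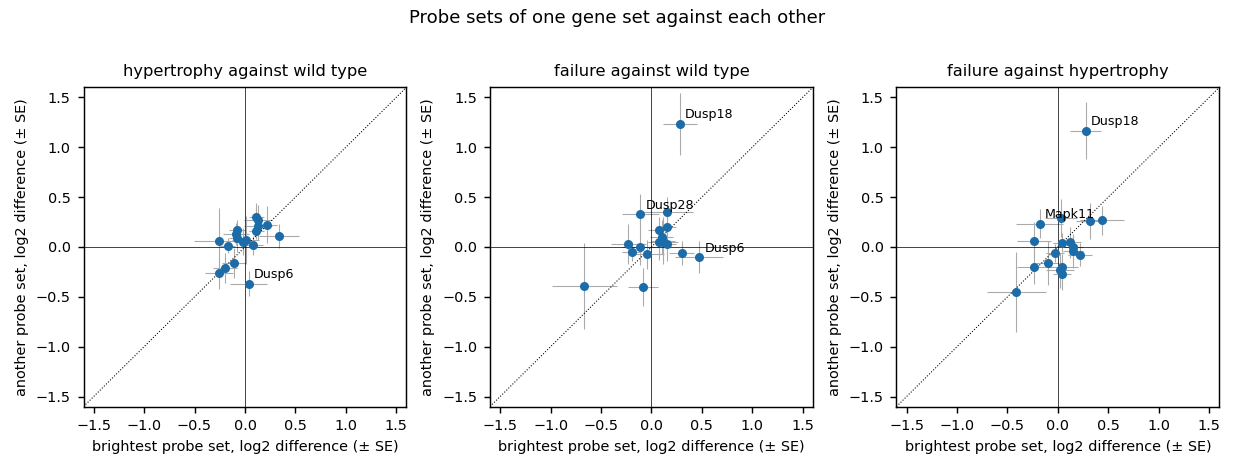
Log2 difference by a further probe set (y axis) against that by the representative probe set of the same gene (x axis), 18 pairs of 15 genes in each of the 3 comparisons, with bars of ± 1 SE and the diagonal of equality dotted. Dusp18 lies at 0.28 and 1.23 in failure against wild type, and Dusp6 falls on opposite sides of 0 in both comparisons with wild type.

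Around the members, a list of 98 other genes of the pathway was examined, of which 84 had a probe set and 64 were tested. In hypertrophy 1 passed (background 0.0858%), with 3 higher and 4 lower at an unadjusted p under 0.05 (7.12% of all probe sets in either direction). In failure against wild type 1 passed (background 0.25%), with 9 higher and 1 lower at an unadjusted p under 0.05 (11.4% of all probe sets in either direction). There 45 of the 64 differences were positive, beside 59.7% of all probe sets. In failure against hypertrophy none passed by limma (background 0.0143%), with 5 higher and 0 lower at an unadjusted p under 0.05 (9.36% of all probe sets in either direction). The median difference was 0.01, 0.11 and 0.10, beside 0.01, 0.05 and 0.04 for all probe sets.

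The gene that passed in both was Styx, a catalytically inactive relative of the dual specificity phosphatases that anchors ERK in the nucleus. Its probe set lay at 31.0, 1, 8.37, 4.03 and 21.7 in wild type, at 1580 to 2413 in hypertrophy and at 1954, 2229 and 1065 in failure. Every transgenic array was far above every wild type array. The probe set reached the intensity filter for testing through transgenic arrays only, as the medians of the wild type arrays were 72.7 to 75.1. The difference was 6.08 ± 0.15 in hypertrophy (limma adjusted p = 2.53e-14) and 5.89 ± 0.19 in failure (adjusted p = 2.7e-12), both understated because 4 of 5 wild type values were raised to the floor of 27.5 before log2. Failure differed from hypertrophy by -0.20 ± 0.18 (adjusted p = 0.807). The cause of this difference was not tested.

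Upstream of the cascade, Ksr1, a scaffold that holds Raf, MEK and ERK together, had a difference of 0.39 ± 0.12 in hypertrophy (limma adjusted p = 0.96) and 0.23 ± 0.15 in failure. Traf2, an adaptor between cytokine receptors and MAP3 kinases, lay at 680 to 768 in wild type, at 675 to 840 in hypertrophy, and at 914, 838 and 829 in failure. Its failure arrays were above all wild type arrays and overlapped hypertrophy. The difference was 0.28 ± 0.10 in failure against wild type (adjusted p = 0.284) and 0.22 ± 0.09 against hypertrophy (adjusted p = 0.419). Among scaffolds, Spag9 (JIP4) lay at 71.6, 72.4, 61.8, 66.4 and 77.8 in wild type, at 54.6 to 140 in hypertrophy, and at 140, 133 and 156 in failure. Failure arrays were all above wild type, and hypertrophy lay across both. The difference was 1.03 ± 0.24 in failure (adjusted p = 0.0673) and 0.48 ± 0.18 in hypertrophy (adjusted p = 0.406), and with quantile scaling the adjusted p in failure was 0.0436. Arrb2, a scaffold that couples G protein coupled receptors to ERK, differed by -0.24 ± 0.09 (adjusted p = 0.378) and -0.32 ± 0.11 (adjusted p = 0.235), with all failure arrays below wild type.

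Downstream, Ier3, an ERK-induced gene, lay at 48.4, 65.6, 73.6, 112 and 85.9 in wild type, at 41.6 to 109 in hypertrophy, and at 198, 190 and 119 in failure. Every failure array was above every other array, replicate 3 by a small margin. The difference was 1.15 ± 0.28 against wild type (limma adjusted p = 0.117) and 1.17 ± 0.26 against hypertrophy (adjusted p = 0.147). Without failure replicate 3 the limma adjusted p were 0.047 and 0.0495. With that array left out, 51 and 24 of all 6980 tested probe sets of the first array type passed in these comparisons. Without failure replicate 1 or 2, Ier3 passed in neither. Spred1, an inhibitor of Ras activation of Raf, differed by 0.37 ± 0.13 in failure against hypertrophy (adjusted p = 0.439). Egr1 and Jun were added after their values were seen, as outputs of ERK and JNK. Egr1 lay at 111 to 219 in wild type and 119 to 251 in hypertrophy, and at 532, 466 and 90.4 in failure, so failure replicate 3 was the lowest array of all. Its difference in failure was 0.91 ± 0.43 (adjusted p = 0.467), and that of Jun -0.07 ± 0.11. In Egr1 and Ier3, as in Dusp1, failure replicate 3 lay below replicates 1 and 2. That replicate also had the lowest sum of the 3 for fibroblast, macrophage and leukocyte, lymphocyte, and hypertrophy and stress markers. It had the highest sum for erythroid, atrial and endothelial markers, and lay between the others for cardiomyocyte, neutrophil and smooth muscle markers. The part of this in the values of these genes was not tested.

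**Figure D4:**
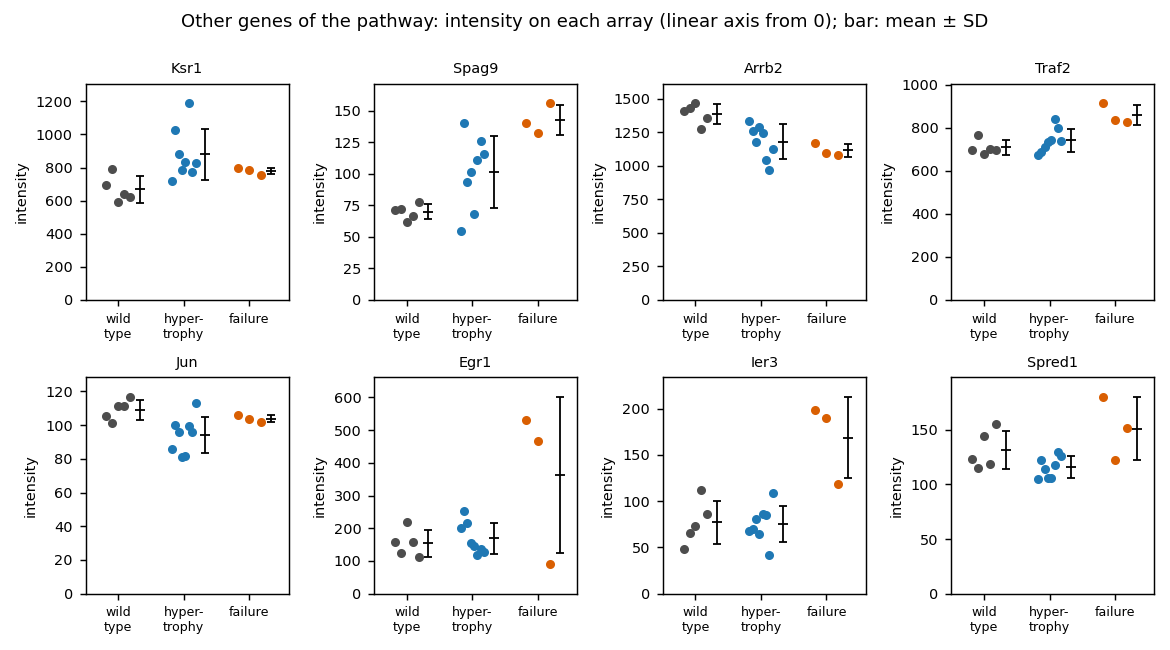
Deposited intensity (y axis, linear from 0) on each array for 8 other genes of the pathway in wild type (grey, 5 arrays), hypertrophy (blue, 8) and failure (orange, 3), with the mean and SD beside each group. Ier3 at 198, 190 and 119 and Spag9 at 140, 133 and 156 in failure lie above all wild type arrays, and Egr1 is high in failure replicates 1 and 2 only.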

How the data were processed

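The deposited values are linear intensities, 1 per probe set. The sources used here do not give how the authors scaled or summarised them. Array medians were 91.8 to 121 on the first array type and 69.3 to 80.6 on the second. The medians varied by 6.60% and 4.65% (coefficient of variation) and the trimmed means by 4.82% and 3.31%. The rule asked for under 5% in either measure. The medians of the first type did not meet it and the trimmed means did, so the values were used as deposited. Precision is limited by the number of arrays.

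Before log2, a floor was set at the 20th percentile of each array type (39.5 and 27.5), so differences of dim probe sets are understated. Control probe sets were left out, and testing required an intensity at or above the array's own median on at least 3 arrays (6980 of 12488 and 7004 of 12477 probe sets). Gene symbols were updated through gene ID to GRCm38.p6, and a probe set naming several genes was not used (3 named a member). Each type was fitted by itself with limma 3.58.1 (R 4.3.3, lmFit and eBayes) on its 16 arrays, with 3 two-sided comparisons and Benjamini-Hochberg adjustment over its tested probe sets (threshold 0.05). Groups came from the labels. Same-numbered replicates of different groups were not paired in the main fit. The fitting code was tested on simulated data.

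The genes named are the core cascade and, per comparison, the 8 members and 4 pathway genes of smallest p, with genes whose probe sets differ in sign. Other members are given by their values, and Egr1 and Jun were named outside this rule after their values were seen. The members, lists and tests were chosen with earlier results of these data known. The alternatives tried were median and quantile scaling, other floors, a stricter filter and none, limma's trend and robust estimation, array weights, fits of only the groups compared, a replicate block, each array left out, and hypertrophy replicates 6 and 7 left out. Promoters came from RefSeq (GRCm38.p6). Protein sequences were planned and are not used here. Tables and plots were made with Python 3.11.15, pandas 2.3.3, numpy 2.4.6 and matplotlib 3.10.9.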

Additional observations from a re-analysis of the deposited data

Results flagged for a closer look

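In each tested member, the highest and lowest array of the wild type and of the hypertrophy group were set against the rest of the group by the Dixon criterion at 95%. It marked 8 of 100 groups (8%), and chance marks about 1 in 20. The 3 failure arrays were too few for it.

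Among MAP3 kinases, Map3k10 was at 148 in wild type replicate 5, against 82.2 to 92.0 in the others. Map3k8 was at 930 in wild type replicate 2, against 477 to 560, and at 2044 in hypertrophy replicate 6, against 381 to 1090. Map4k1 was at 125 in hypertrophy replicate 1, against 166 to 201.

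Among MAP kinases, Mapk10 (JNK3) was at 246 in wild type replicate 2, against 153 to 177, and Mapk11 (p38 beta) at 183 in wild type replicate 4, against 460 to 542. Mapk1ip1 was at 182 in wild type replicate 5, against 142 to 152. The phosphatase Dusp10 was at 98.5 in wild type replicate 2, against 127 to 132.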

How the results depend on the processing

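Members called stayed at 0 under every alternative run, except in failure against wild type with array weights (4) and with only the groups compared (1). Leaving out each array in turn gave 0 members in each comparison.

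Counts over all probe sets moved more, given as first and second array type where both changed. In hypertrophy against wild type (0 and 12 as reported) the first type gave 1 with no filter, and the second gave 22 with array weights, 3 with the replicate block and 7 without hypertrophy replicates 6 and 7. In failure against wild type (10 and 25) the counts were 33 and 40 with median scaling, 27 and 46 with the 40th percentile floor, 22 and 55 with no filter, 1002 and 428 with array weights, 122 and 193 with only the groups compared, 3 and 6 with the replicate block, and 34 and 70 without hypertrophy replicates 6 and 7. Quantile scaling gave 30 on the first type. In failure against hypertrophy (0 and 2) they were 3 and 12 with the 40th percentile floor, 10 and 12 with no filter, and 274 and 30 with array weights. The second type gave 0 with only the groups compared, with the replicate block and without hypertrophy replicates 6 and 7. With each array left out the ranges were 0 to 1 and 5 to 25, 0 to 51 and 4 to 79, and 0 to 24 and 0 to 13 in the 3 comparisons. In failure against wild type the lowest were without failure replicates 1 and 2, and the highest without failure replicate 3 (first type) and hypertrophy replicate 1 (second type).

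Pathway genes called in failure against wild type (1 as reported) were 2 with quantile scaling, with median scaling and without hypertrophy replicates 6 and 7, 3 with the 40th percentile floor and with only the groups compared, and 11 with array weights. With each array left out they were 1 to 3. In failure against hypertrophy (0) they were 1 with the 40th percentile floor and 2 with array weights, and 0 to 2 with each array left out.

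Of 66 single gene results, 16 changed sign under some alternative, and neither their reported values nor those of the other sign passed the threshold. In hypertrophy against wild type, a further probe set gave 0.014 for Mapk8ip2, 0.13 for Mapk9, 0.054 for Map2k3 and -0.37 for Dusp6, while the second probe sets set against the first gave 0.035 for Dusp6 and -0.17 for Mapk8ip2. Array weights gave 0.015 for Mapk9, 0.055 for Mapk10, 0.041 for Map2k5 and -0.0057 for the second Mapk8ip2 probe set, which was also at -0.019 with quantile and -0.035 with median scaling. The replicate block gave 0.042 for Mapk9, 0.031 for Map2k5 and 0.00020 for Map2k3. Map2k5 was at 0.088 without hypertrophy replicates 6 and 7, and Map2k3 at 0.0061 with quantile scaling.

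In failure against wild type, a further probe set gave -0.061 for Map3k3 and -0.10 for Dusp6, and the first Map3k3 probe set gave 0.30 against the second. Mapk10 was at 0.0081 with array weights. Mapk9 was at 0.016 with quantile scaling and 0.018 with the replicate block. Map2k5 was at -0.051 with quantile scaling, -0.090 with median scaling, -0.026 with array weights and -0.048 with the replicate block.

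With each array left out, the ranges in hypertrophy were -0.088 to 0.083 for Mapk10, -0.095 to 0.045 for Map2k5, -0.059 to 0.012 for Map2k3, and -0.078 to 0.13 and -0.041 to 0.035 for the first Dusp6 and second Mapk8ip2 probe sets. In failure they were -0.40 to 0.10 for Map3k5, -0.29 to 0.018 for Mapk10, -0.14 to 0.26 for Mapk11, -0.18 to 0.080 for Mapk9, -0.15 to 0.093 for Map2k5 and -0.13 to 0.012 for the second Map3k3 probe set. The cause was not tested in any of these.

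Same-numbered arrays of different groups correlated from -0.19 to 0.36 in their deviations. Arrays of unlike number were not compared, so these values cannot decide whether the numbers pair the samples. The replicate block called 0 members in each comparison. The number of arrays limits the precision, with 3 in failure.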
